A study of Mus musculus with 8 samples.

Results

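Enteroendocrine cells store their hormones in dense-core granules, and the 10 genes described here encode the proteins that build those granules or mature their cargo. They are the granins Chga, Chgb, Scg2 and Scg3, the granin-like precursor Vgf, the prohormone convertase Pcsk1 with its inhibitor Pcsk1n, the convertase chaperone Scg5, the carboxypeptidase Cpe and the serotonin-forming enzyme Tph1. Members were all probe sets of the deposited table whose only gene symbol was one of these names, and they came to 11 of 45037 probe sets tested, for 10 of 18193 genes. Cpe had a pair of probe sets, and each other gene had 1.

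The arrays measured total RNA from the first 5 cm of small intestine below the pylorus of male mice aged 6 months. The 4 knockout mice were Pdx1flox/flox;VilCre, and the 4 controls were Pdx1flox/flox brothers without the Cre transgene, so both groups carried the floxed alleles. Cre was driven by a 12.4 kb villin 1 promoter fragment and removed exon 2 of Pdx1, which encodes the homeodomain of this duodenal and pancreatic transcription factor, in the gut epithelium. All mice ate a diet with 4.5% fat, and each mouse gave 1 array.

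A peptide hormone is made as a long precursor. In the granule Pcsk1 cuts it after paired basic residues and Cpe trims those residues from the new end, while granins aggregate in the acid, calcium-rich lumen and help to pack the cargo. Chga is the usual marker of enteroendocrine cells as a class, whereas a hormone such as Gip marks one kind of cell within it. Enteric neurons, pancreatic islets and, for Tph1, mast cells can express some of the same genes, and in whole tissue fewer cells of a type and less RNA per cell cannot be told apart.

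Several of these genes are known to respond to cyclic AMP through a promoter element, so the promoters were read for it. RefSeq promoters of GRCm38.p6 were given for 8 of the 10 genes, those of Cpe and Vgf being the others. The full element TGACGTCA, which reads the same on both strands, lay in the 250 bases before the start of 3 genes, Scg2, Chgb and Pcsk1. It was found in 1.55% of all 32851 promoters in the same 250 bases. The shorter TGACGT, searched on both strands and contained in the full element, lay before 5 genes, adding Chga and Scg5, against 6.47% of all promoters. The stretches below are shown because they set these 5 genes side by side, with 20 bases kept on each side and the element in capitals, 5′ to 3′ along the gene.
Scg2, chr1:79440067-79440114, minus strand: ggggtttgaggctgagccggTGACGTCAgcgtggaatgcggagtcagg
Chgb, chr2:132781550-132781597, plus strand: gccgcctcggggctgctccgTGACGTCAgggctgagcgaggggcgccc
Pcsk1, chr13:75089759-75089806, plus strand: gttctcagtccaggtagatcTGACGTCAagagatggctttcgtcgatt
Chga, chr12:102554877-102554922, plus strand: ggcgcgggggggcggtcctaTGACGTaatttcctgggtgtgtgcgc
Scg5, chr2:113829241-113829286, minus strand: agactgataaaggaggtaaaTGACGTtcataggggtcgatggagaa
The element began 68 bases before the start in Scg2, 72 in Chgb, 78 in Pcsk1 and 44 in Chga. Pcsk1 had a further match to the shorter TGACGT, not shown, that began 50 bases before the start. In Scg5 it began 175 bases before the start. A match is a string of letters and was not tied to binding in these samples.

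Across the whole series, array medians lay between 5.23 and 5.27 on the log2 scale, and any pair of arrays had a Pearson's r of 0.990 to 0.996 over the probe sets. The deleted gene, Pdx1, was lower in every knockout, at 5.93 ± 0.25 against 8.52 ± 0.36 for the controls (SD, n = 4 each; limma adjusted p = 4.16e-04), though whether its probes lie in the removed exon was not analysed here. The enterocyte marker list, with the brush border protein villin (Vil1) in it, had a summed level (log2 of the summed unlogged values) of 17.14 to 17.28 in the control and 17.27 to 17.43 in the knockout. Summed levels of 9 smooth muscle markers ran from 13.08 to 13.23 in the control and from 13.16 to 13.57 in the knockout. Of these lists 11 of 12 enterocyte and 9 of 9 smooth muscle genes had values above 0, none past the threshold. Over all 18193 genes, by their brightest probe set, 9393 lay above 0. The groups did not overlap for 5 enterocyte genes on the higher side, Vil1 (0.19) among them, and 1 on the lower. Over all genes these counts were 415 and 376. The part of either list in the results below was not tested.

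No member passed the test. Of the 11 probe sets 0 passed an adjusted p under 0.05 in limma, where 0.0422% of all probe sets tested passed, and 0 had an unadjusted p under 0.05, which 7.13% of all probe sets had. In none of the 11 were the groups separated, which occurred in 4.43% of all probe sets. Adjusted p-values ran from 0.750 for Pcsk1n to 0.990 for Scg5. Log2 changes, knockout minus control, ran from -0.25 to 0.15 with a median of -0.064, and 9 of 11 lay below 0, against a median near 0 and 50.0% below 0 over all probe sets. The widest 95% limits reached down to -0.67, a level 0.629 times the control (Tph1), and up to 0.48, or 1.40 times (Scg5). Smaller changes of these transcripts were within the error of 4 arrays a group.

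**Figure D1:**
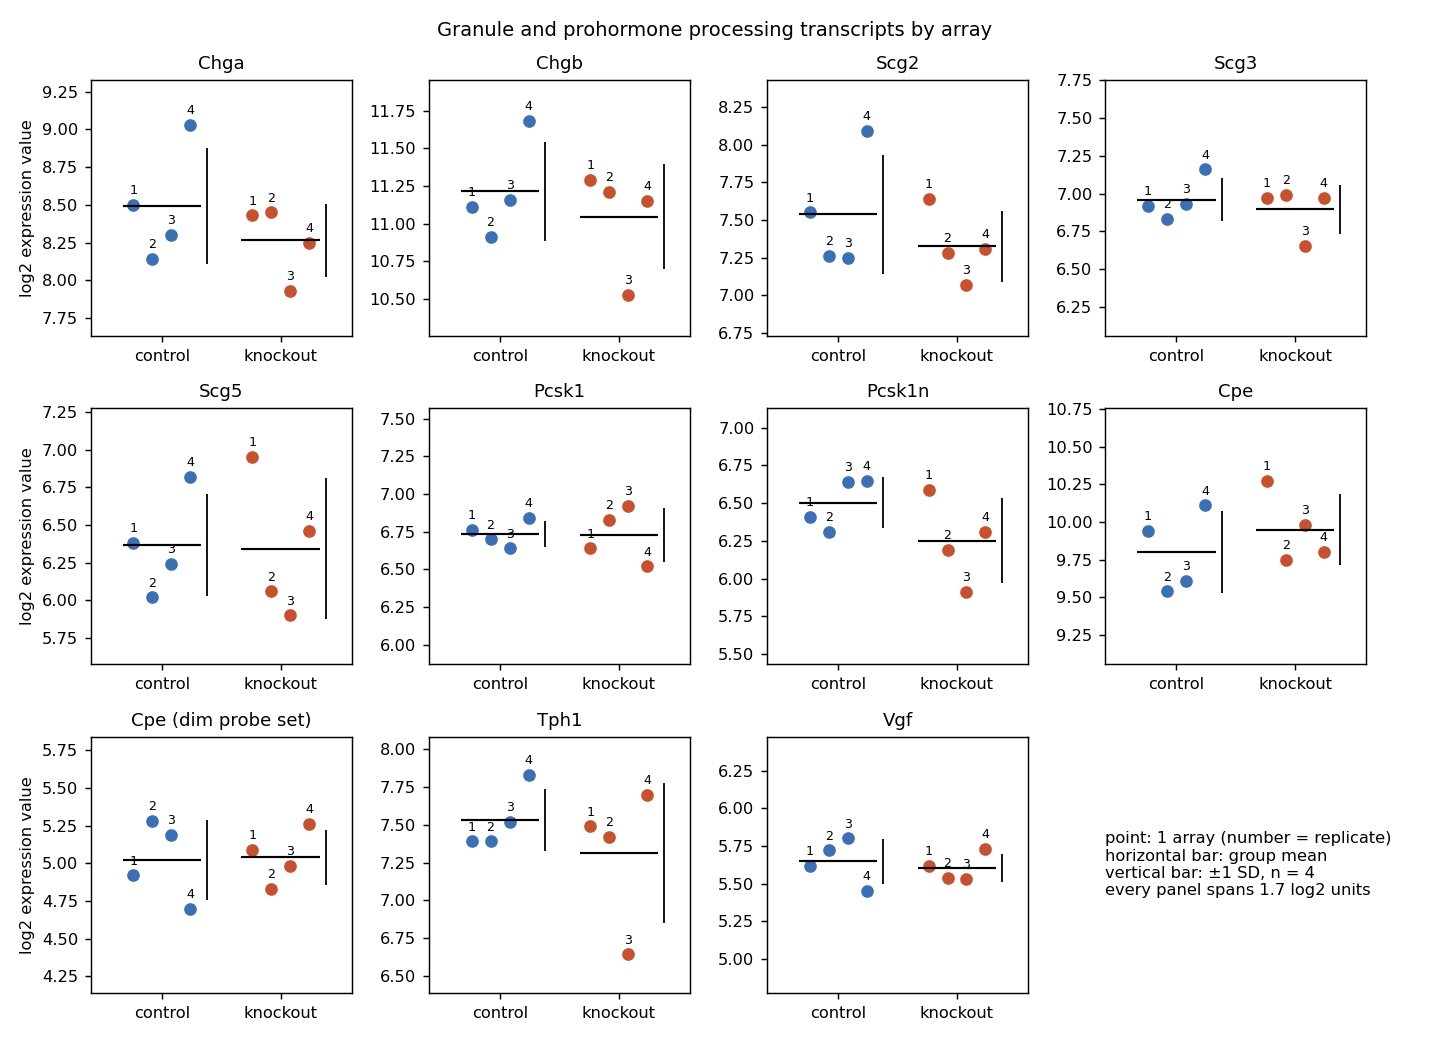
Log2 expression value of each member probe set on each array, control in blue and knockout in red, with the replicate number beside each point, the group mean as a horizontal bar and ±1 SD (n = 4) as a vertical bar. The groups overlap in all 11 panels, and control 4 lies highest in 6 of them and knockout 3 lowest in 7.

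Chromogranin A (Chga), the granin used as a general marker of endocrine cells, read 8.50, 8.14, 8.30 and 9.03 in controls 1 to 4 and 8.43, 8.45, 7.93 and 8.25 in knockouts 1 to 4. Control 4 stood above the other arrays and knockout 3 below them, with the remaining values mixed. The change was -0.23 with a standard error of 0.18 (limma adjusted p = 0.826), and its 95% limits were -0.64 and 0.18.

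Chromogranin B (Chgb), a second granin of the granule core, read 11.11, 10.91, 11.16 and 11.68 in the controls and 11.29, 11.21, 10.53 and 11.15 in the knockouts. The same control and knockout arrays marked the top and the bottom, and 3 of the 4 knockout values lay inside the control range. The means were 11.21 ± 0.33 and 11.04 ± 0.35 (SD, n = 4 each), a change of -0.17 (limma adjusted p = 0.887).

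Secretogranin II (Scg2), the precursor of the peptide secretoneurin, read 7.55, 7.26, 7.25 and 8.09 in the controls and 7.64, 7.28, 7.07 and 7.31 in the knockouts. Its change of -0.22 had a standard error of 0.18 (limma adjusted p = 0.842). Again control 4 was highest and knockout 3 lowest, and the other 6 arrays overlapped.

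Secretogranin III (Scg3), which binds chromogranin A and the granule membrane, varied less. It read 6.92, 6.83, 6.93 and 7.16 in the controls and 6.97, 6.99, 6.65 and 6.97 in the knockouts, and its change was -0.064 (limma adjusted p = 0.923). Knockout 3 stood apart from 3 close knockout values.

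Vgf, a precursor of several neuroendocrine peptides, read 5.62, 5.72, 5.80 and 5.45 in the controls and 5.62, 5.54, 5.53 and 5.73 in the knockouts. The pattern of the granins was not seen in it, since control 4 was its lowest array. Its means, 5.60 ± 0.094 for the knockouts and 5.65 ± 0.15 for the controls (SD, n = 4 each), lay not far above the array medians. The change was -0.042 (limma adjusted p = 0.944).

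Among the transcripts for processing proteins, that of the convertase Pcsk1 differed least. It read 6.76, 6.70, 6.64 and 6.84 in the controls and 6.64, 6.83, 6.92 and 6.52 in the knockouts. Both the highest and the lowest value were knockout arrays, 3 and 4. The change was -0.011 with 95% limits of -0.22 and 0.20 (limma adjusted p = 0.988).

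Its inhibitor proSAAS, the product of Pcsk1n, had the smallest p of the members. Pcsk1n read 6.41, 6.31, 6.64 and 6.65 in the controls and 6.59, 6.19, 5.91 and 6.31 in the knockouts, a change of -0.25 with a standard error of 0.14 (unadjusted p = 0.0997, adjusted p = 0.750 in limma). Knockouts 2 and 3 lay below every control, knockout 4 was level with the lowest control, and knockout 1 lay above controls 1 and 2.

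Scg5, which encodes a chaperone of the related convertase Pcsk2, had the largest standard error of the members. The controls read 6.38, 6.02, 6.24 and 6.82 and the knockouts 6.95, 6.06, 5.90 and 6.46. Knockouts held both the highest and the lowest value, the change was -0.024 and its standard error was 0.23 (limma adjusted p = 0.990).

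Carboxypeptidase E (Cpe) was the only gene whose value lay above 0. Its brighter probe set read 9.94, 9.54, 9.61 and 10.11 in the controls and 10.27, 9.75, 9.98 and 9.80 in the knockouts, a change of 0.15 (limma adjusted p = 0.867). Knockout 1 was the highest array and control 2 the lowest. The dimmer probe set, of a type whose probes may also read other transcripts, lay between 4.70 and 5.28 in the controls and between 4.83 and 5.26 in the knockouts, with a change of 0.016.

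Tph1, the first enzyme of serotonin synthesis in enterochromaffin cells, read 7.39, 7.39, 7.52 and 7.83 in the controls and 7.49, 7.42, 6.64 and 7.70 in the knockouts. A single array, knockout 3, carried the low mean, and the other 3 knockout values lay within the control range. The change was -0.22 (limma adjusted p = 0.855), and without knockout 3 it was 0.0018. Mast cell markers, 11 of 11 measured, had a summed level of 9.06 to 9.16 in the control and 9.15 to 9.27 in the knockout, and knockout 3, where Tph1 was low, had 9.15. The mast cell protease Mcpt1 had 0.37 and the tryptase Tpsab1 -0.25, both with groups that did not overlap and neither past the adjusted threshold, and the part of mast cells in the Tph1 values was not tested.

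The sign of several of these values changed when arrays were left out. Without control 4 alone the median of the 11 was -0.032, and without knockout 3 alone it was 0.0018. Other arrays moved it the other way, to -0.23 without knockout 1 and -0.14 without control 2. Without knockout 1, Pcsk1n had -0.36 and Scg2 -0.32. Leaving out control 4 moved Chga to -0.051 and Scg2 to -0.032, leaving out knockout 3 moved Pcsk1n to -0.13, and leaving out knockout 1 moved the brighter Cpe probe set to 0.045. Scg5 had the opposite sign without control 4, knockout 2 or knockout 3, and Pcsk1 without control 4, knockout 1 or knockout 4. A fit without control 4 and knockout 3 together was chosen after the values were seen. It removes the control with the highest mean of the members and the knockout with the lowest, so it raises most changes by construction and supports no direction. In it 7 of 11 changes lay above 0, with Chga at 0.059, Chgb at 0.16, Scg2 at 0.053, Scg3 at 0.083, Tph1 at 0.10 and Scg5 at 0.28, while Pcsk1n (-0.087), Vgf (-0.083), Pcsk1 (-0.039) and the brighter Cpe probe set (0.24) kept their signs. None of the 11 passed in any of these fits.

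**Figure D2:**
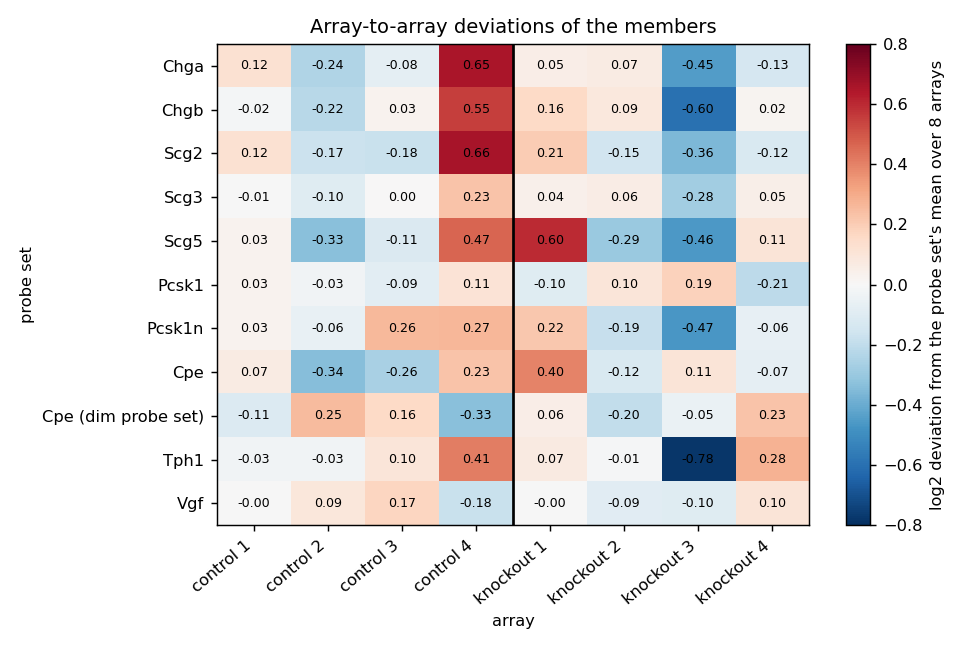
Deviation of each array (columns) from each probe set's mean over the 8 arrays (rows), in log2 units, printed in each cell and coloured from blue (below) to red (above), with a black line between controls and knockouts. Control 4 is above the mean in 9 of 11 rows and knockout 3 below it in 9, while Pcsk1, Vgf and the dimmer Cpe probe set do not follow the granins.

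The members differed from mouse to mouse in a largely shared way. The mean deviation of the 10 genes, each by its brighter probe set, was 0.34 in control 4 and -0.32 in knockout 3 and lay between -0.14 and 0.16 in the other 6 arrays. Most members shared this order. Pearson's r of each gene with the mean of the other 9, over the 8 arrays, was 0.94 for Chgb, 0.91 for Scg2 and Scg3, 0.89 for Chga, 0.85 for Scg5, 0.80 for Pcsk1n and 0.76 for Tph1. It was 0.40 for Cpe, -0.26 for Pcsk1 and -0.31 for Vgf. These are descriptions over arrays that also share their RNA and hybridisation. They were not centred by group and were taken only with control 4 and knockout 3 included. Of the genes with TGACGT before their start, Chga, Chgb, Scg2 and Scg5 were in the first set and Pcsk1 in the second. Scg3, Pcsk1n and Tph1, also in the first set, had no match. Cpe and Vgf, the rest of the second set, had no promoter to read, so the sets cannot be compared for the element.

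Markers of other cell types also differed between the arrays. Of 8 islet markers 6 were measured, among them Gcg and Iapp, which are also on the gut hormone list given below. The mean deviation of the 6 was 1.89 in control 4, 0.61 in knockout 2 and 0.35 in control 1. It lay between -0.82 and -0.47 in the other 5 arrays. Insulin (Ins2) read 9.31, 8.11, 6.62 and 13.00 in the controls and 7.84, 10.46, 8.06 and 8.06 in the knockouts, so control 4 was highest for it as for 6 of the members. Knockout 2, the next highest for insulin, deviated by 0.066 in Chga, 0.085 in Chgb, 0.062 in Scg3 and 0.098 in Pcsk1. Its deviations were -0.15 in Scg2, -0.29 in Scg5 and -0.19 in Pcsk1n. They were -0.12 in the brighter Cpe probe set, -0.089 in Vgf and -0.0087 in Tph1. Over the 8 arrays Chga had a Pearson's r of 0.806 with Ins2 and 0.877 with the islet peptide gene Iapp, and the members' mean had 0.574 and 0.648. By ranks the relation was weaker, with a Spearman's rho of 0.548 and 0.690 for Chga and 0.143 and 0.333 for the members' mean. The islet list's summed level, 11.99 to 13.74 in the control and 12.19 to 12.68 in the knockout, includes the glucose transporter Slc2a2, which enterocytes also express and which was the highest of the list in every array but control 4. It read 11.65 to 12.34 in the control and 12.02 to 12.36 in the knockout.

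The 12 measured exocrine markers summed to 16.06 to 17.87 in the control and 16.73 to 17.49 in the knockout, and the acinar enzyme Cpb1 among them read 14.31 in control 4 and 13.95 in knockout 3. Enteric neuron markers, 13 of 14 measured, had their highest mean deviation in control 4, at 0.097, and their lowest in knockout 3, at -0.11, as the members did. Their summed level was 10.11 to 10.44 in the control and 10.13 to 10.25 in the knockout, with the neuropeptide Vip the highest and the neurofilament Nefm, at means of 3.41 and 3.38, the lowest of the list. Chat, which makes acetylcholine, was the neuron marker whose groups did not overlap, with a change of -0.26 (limma adjusted p = 0.561). Enteric glia markers, 5 of 6 measured, summed to 11.22 to 11.58 and 11.38 to 11.49, most of it Erbb3, which epithelial cells also express. The other 4, Sox10, S100b, Gfap and Foxd3, lay between 4.52 and 7.02, and Gfap had -0.21 (unadjusted p = 0.0303, adjusted p = 0.676 in limma). The part of these cell types in the members' values was not tested.

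The incretin hormone Gip, made by the K cells of the upper gut and packed in the same kind of granule, gave the contrast. It read 11.37, 11.20, 11.30 and 11.77 in the controls and 9.04, 8.76, 8.37 and 8.93 in the knockouts, and it fell by 2.64 with a standard error of 0.16 (limma adjusted p = 2.01e-04). The fall exceeded every member's change. The log2 ratio of Gip to each of the 11 member probe sets was lower in every knockout than in any control, with differences from -2.39 (Pcsk1n) to -2.79 (Cpe). For each of the 11 the two-sided exact permutation p was 0.0286, the smallest that 4 against 4 arrays can give, and it was 0.0286 after Benjamini-Hochberg adjustment over the 11. Gip was named with its change already known, and all 11 tests share its values. With so large a fall the smallest p could be foreseen for each. The p-values therefore add no support to the differences, which are given as a description.

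**Figure D3:**
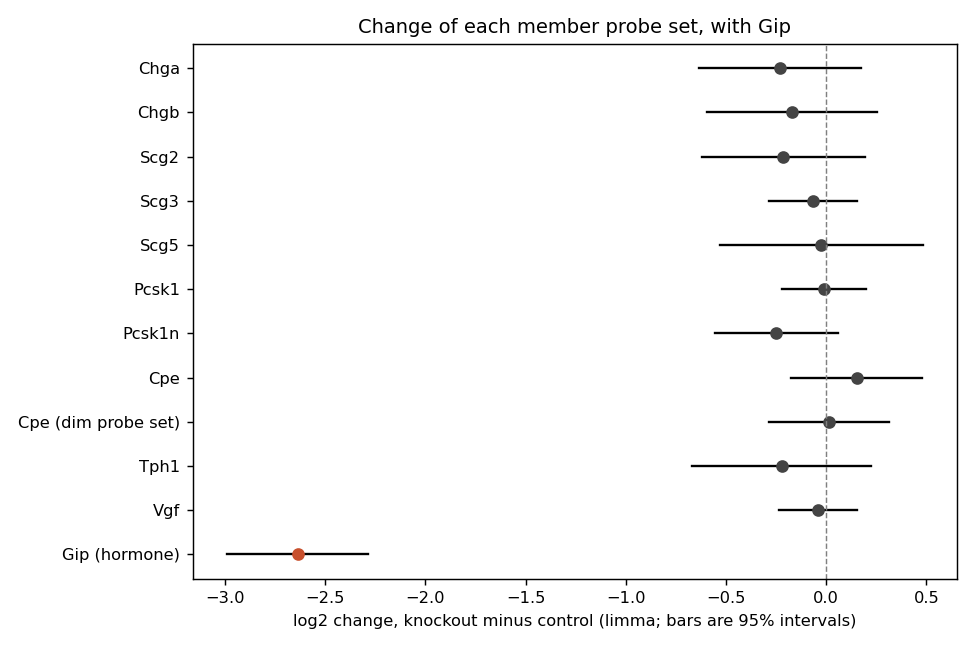
Log2 change of each member probe set and of Gip, knockout minus control, as a point with its 95% interval from limma. All 11 member intervals cross 0 and end no lower than -0.67, while Gip lies at -2.64, with an interval from -2.99 to -2.28.

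Within each genotype Gip nonetheless varied with the members from mouse to mouse. Among the controls Gip stood 0.36 above its group mean in control 4 and 0.21 below it in control 2, where the members stood 0.29 above and 0.20 below theirs. Among the knockouts Gip was 0.27 above in knockout 1 and 0.41 below in knockout 3, where the members were 0.22 above and 0.27 below. Taken as deviations from the group means, the 8 arrays stood in the same order for both (Pearson's r = 0.983, Spearman's rho = 1.0). Over the 6 arrays other than the 2 farthest from the median, control 4 and knockout 3, r was 0.966. The deviations were still taken from group means that included those 2 arrays, so this r is not free of them. Of 10549 genes with a mean of at least 6, 8 had a higher r than Gip, and 2.18% had an r of at least 0.9. The relation was noticed in these data and is given as a description, with no p.

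**Figure D4:**
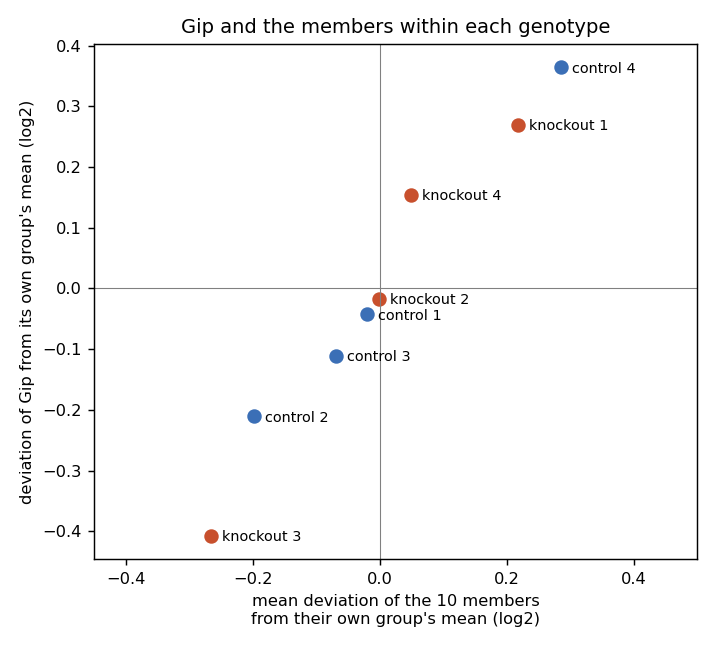
Deviation of Gip from its own group's mean (vertical axis) against the mean deviation of the 10 members from theirs (horizontal axis), both in log2 units, 1 point an array, controls in blue and knockouts in red. The 8 points lie in one order on both axes, from knockout 3 at the lower left to control 4 at the upper right.

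Other hormones varied with the members to different degrees. Within groups r with the members was 0.924 for Cck, the satiety hormone of I cells, 0.924 for the proglucagon gene Gcg, 0.878 for secretin (Sct) and 0.853 for somatostatin (Sst). Over the arrays other than control 4 and knockout 3 these were 0.860, 0.792, 0.765 and 0.815. The deviations were still taken from group means that included both arrays. Each second value, here and below, is therefore not free of them. Peptide YY (Pyy) had 0.792 and then 0.796, the tachykinin gene Tac1 0.784 and then 0.504, neurotensin (Nts) 0.707 and then 0.304, and Iapp 0.608 and then 0.305. Ghrelin (Ghrl) had 0.200, Insl5 0.230 and gastrin (Gast), whose control values ranged from 6.52 to 10.75, -0.461. Ddc, which makes serotonin from the product of Tph1, had 0.957 and the vesicular monoamine transporter Slc18a1 0.963, and without the same pair of arrays 0.929 and 0.935. The insulin gene Ins2 had 0.555 and then 0.201, and the acinar Cpb1 0.0745. Apob, of the enterocyte marker list, had 0.804, so a high r was not confined to endocrine genes.

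Among 12 gut hormones 1 fell, Gip, 0 rose and 11 did not pass, and 10 of 12 values lay below 0. Over all genes 0.066% passed in limma and 48.4% lay below 0. Sst had -0.61 (unadjusted p = 0.00617, adjusted p = 0.561 in limma). Its groups did not overlap, as in 2.07% of all genes on the lower side. The highest knockout, at 8.98, lay only just below the lowest control. Pyy had -0.50 with overlapping groups (unadjusted p = 0.0424, adjusted p = 0.692 in limma). Cck had -0.11 and Sct -0.18 (limma adjusted p = 0.941 and 0.905).

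By the rule of likeness over all 8 arrays, the genes whose pattern was closest to the members' mean were Fam183b (Pearson's r = 0.989), Nfat5 (0.989), 1810019D21Rik (0.986), Foxj2 (0.984) and Ech1 (0.982), out of 10549 compared. For Chga alone they were Pde4d (0.981), Ifnar2 (0.977), Col13a1 (0.972), Sash1 (0.972) and Gcg (0.970). Each of the 10 was highest in control 4 and, like the members' mean, lowest in knockout 3.

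Beyond the members, 63 of 66 listed genes of granule processing, granule membrane and exocytosis were measured, and 0 passed in either direction in limma. For comparison, 0.066% of all 18193 genes passed, a gene being represented by its brightest probe set. At an unadjusted p under 0.05 there were 7 of 63, against 6.83% of all genes. The median change was -0.038, with 41 of 63 below 0, against a median of 0.0046 and 48.4% below 0 over all genes.

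Transcripts for processing enzymes lay closest to 0. Of 9 measured, 0 fell, 0 rose and 9 did not pass, with values from -0.072 to 0.14. Qpct, which cyclises N-terminal glutamine, had 0.14, the membrane carboxypeptidase Cpm 0.13 and cathepsin L (Ctsl) -0.072. Pam, which amidates peptide ends, had -0.053 and the convertase Furin 0.025.

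Transcripts for granule membrane and cargo proteins lay lower, with 15 of 19 below 0 and none past the threshold. Ptprn2, or phogrin, a phosphatase-like protein of the granule membrane, read 8.53, 8.28, 8.32 and 8.54 in the controls and 8.09, 8.16, 8.05 and 8.15 in the knockouts. Its groups did not overlap, as in 2.07% of all genes on the lower side, and its change was -0.31 (limma adjusted p = 0.520). The vesicle glycoprotein Sv2a was separated too, at -0.20 (adjusted p = 0.599). Nucb2, the precursor of nesfatin, had -0.55 (adjusted p = 0.697), but its groups overlapped. The related Ptprn had 0.027 (adjusted p = 0.967), and Ddc had -0.0065 (adjusted p = 0.995).

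In the docking and exocytosis list 35 of 37 genes were measured, 23 lay below 0 and 0 passed. The active-zone protein Pclo had -0.19 with groups that did not overlap, though it read 4.15 ± 0.067 in the control and 3.97 ± 0.064 in the knockout (SD, n = 4 each; limma adjusted p = 0.641), below the array medians. The calcium sensor Syt7 had -0.26, and Stx3, a syntaxin of the apical membrane of epithelial cells, had 0.21 (adjusted p = 0.684 and 0.648 in limma). Lineage factors gave no called gene either: of 11 measured 0 passed, with a median of 0.017, Neurog3, which starts the endocrine programme, at -0.24 and Neurod1 at -0.036.

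**Figure D5:**
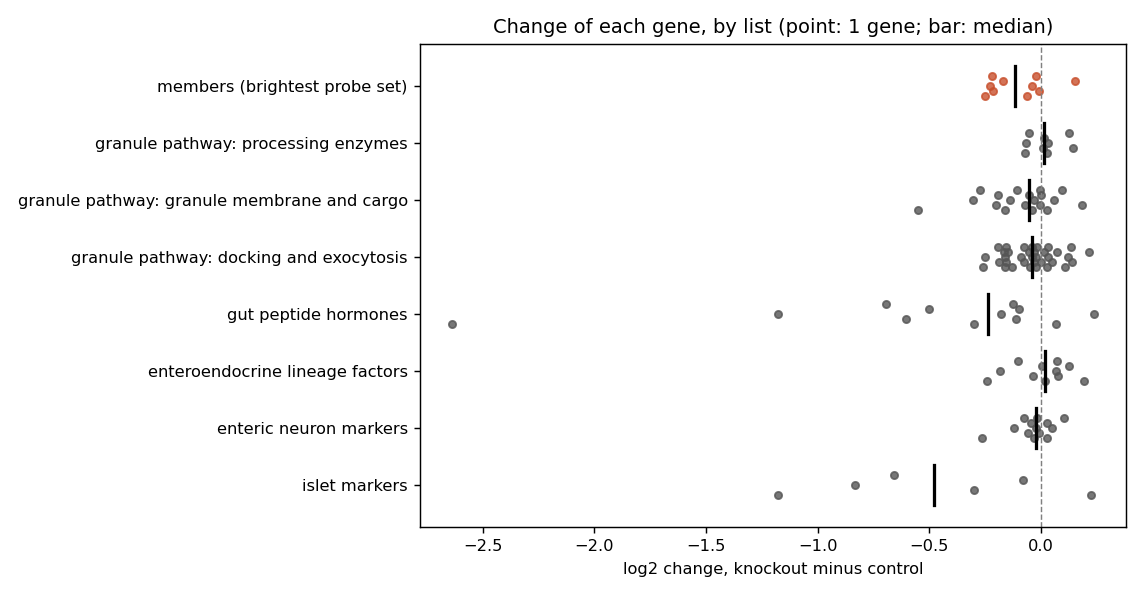
Log2 change, knockout minus control, of each gene in 8 lists, 1 point a gene by its brightest probe set, with the list's median as a black bar and a dashed line at 0. The 10 members lie between -0.25 and 0.15, while Gip stands alone at -2.64 among the gut hormones.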

How the data were processed

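Biotin-labelled cRNA was made from total RNA with an Affymetrix kit and read on arrays, per the labels' protocols. The authors deposited log2 expression values per probe set. The submitters' processing notes name Partek 6.4 without a role. For background correction and normalization the method is not given in the sources used here. That scale was read from the values, 2.55 to 14.83. Without detection calls, a change of a dim probe set can be understated.

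Of 45101 probe sets, 64 array controls were left out. Symbols were taken from GEO's annotation of the platform. Knockout minus control was fitted over 45037 probe sets with lmFit and eBayes of limma 3.58.1 (R 4.3.3), two-sided, with Benjamini-Hochberg adjustment, and the step was tested on simulated data. The labels call samples biological replicates. Summed levels are log2 of summed unlogged values. The members, lists and rule for named genes (all members, changed or lowest-p pathway genes, reference hormones and the closest patterns) were chosen with earlier results of these data known. The number of arrays limits the precision. Deviations of same-numbered samples correlated between -0.18 and 0.08, so numbers were not taken as pairs. Alternatives covered scaling, filters, the variance model, a replicate block, thresholds and left-out samples.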

Additional observations from a re-analysis of the deposited data

Results flagged for a closer look

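Scg3 in knockout 3 read 6.65, while the other 3 knockouts lay between 6.97 and 6.99. Its gap to the nearest was 0.936 of the group's range, above Dixon's critical value for 4 samples, which chance passes in about 1 in 20 groups. It was the only array so set apart among the 11 probe sets in both groups.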

How the results depend on the processing

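The count of 0 changed member probe sets was the same in all 19 alternatives run, including unadjusted p under 0.05 in the reported fit. The lowest adjusted p of any member was 0.695. In the limma fit without knockout 1, 1 of the 11 had an unadjusted p under 0.05. The filter on the mean kept 9 of the 11. With the replicate number as a block, 0 members, 0 pathway genes and 24 of all probe sets passed, against 19 reported. Pathway genes were 0 in every setting but unadjusted p under 0.05, with 7. Over all probe sets an ordinary linear model called 2, adjusted p under 0.1 gave 29 and unadjusted p under 0.05 gave 3210, while leaving out 1 sample gave 13 to 20. With values floored at 5, probe sets at 5 on every array were left out. Of 185 member values, 25 had the opposite sign. Without control 4 and knockout 3 together they were 0.059 (Chga), 0.16 (Chgb), 0.053 (Scg2), 0.083 (Scg3), 0.28 (Scg5), 0.10 (Tph1) and -0.072 (dimmer Cpe). Array weights gave 0.065 for Scg5 and -7.31e-04 for the dimmer Cpe, which had -0.032 with the floor. Leaving out 1 sample gave ranges of -0.27 to 0.0023 (Chgb), -0.11 to 0.017 (Scg3), -0.23 to 0.13 (Scg5), -0.075 to 0.057 (Pcsk1), -0.093 to 0.10 (dimmer Cpe), -0.35 to 0.0018 (Tph1) and -0.11 to 0.0080 (Vgf), and, with no change of sign, -0.35 to -0.051 (Chga), -0.32 to -0.032 (Scg2), -0.36 to -0.13 (Pcsk1n) and 0.045 to 0.25 (brighter Cpe). The cause was not tested beyond the samples left out. Gip's change lay below each member's in all settings run, by a log2 difference of 2.29 to 2.89, but 3 against 3 arrays cannot give an exact p under 0.1.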
